A study of Mus musculus with 22 samples.

Results

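Genes of the pancreatic trunk and duct epithelium were followed in sorted endocrine cells of mice lacking *Isl1*. The 9 genes are *Sox9*, *Onecut1*, *Krt8*, *Krt18*, *Krt19*, *Spp1*, *Anxa2*, *Epcam* and *Cdh1*, chosen by symbol and matched by Ensembl identifier to both count tables, which hold 27124 genes at E14.5 and 27504 at P9. All 9 were present in both tables. The comparison asks whether endocrine cells without ISL1 hold more of a duct-like programme than control cells.

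RNA-seq was made from 100 FACS-sorted tdTomato+ pancreatic cells per library. The *Isl1CKO* mice carried *Neurod1Cre*, floxed *Isl1* on both alleles and the Ai14 tdTomato reporter. Controls were littermates with the same Cre and reporter and, as the study describes the E14.5 sort, a single floxed *Isl1* allele, although GEO lists them as wild type. The groups were 6 control and 5 *Isl1CKO* libraries at the embryonic stage E14.5, and 5 control and 6 *Isl1CKO* libraries at P9 (postnatal day 9). *Neurod1Cre* is active in endocrine-committed cells, so the sort aims at these and not at duct cells. Whether trunk or duct cells were sorted as well was not tested here. For the E14.5 libraries the study estimated cell type shares by deconvolution, with trunk and tip epithelium among its reference types. It reported a higher share of endocrine progenitors and a lower share of α cells in *Isl1CKO*. Nothing in the labels states that each library came from a separate animal, so the p-values measure the spread between these libraries.

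The trunk of the embryonic pancreas is a branching tube of bipotent progenitors. Its cells give rise to duct cells or, after a pulse of Neurog3, to endocrine cells that delaminate from the epithelium. SOX9 and ONECUT1 are transcription factors of the trunk that act upstream of Neurog3 and stay linked to the duct lineage. KRT8 (type II) pairs with the type I keratins KRT18 and KRT19 in the filaments of simple epithelia, and KRT19 is a widely used duct marker. SPP1 (osteopontin) is a secreted phosphoprotein made by duct cells and also by macrophages. ANXA2 is a calcium-dependent membrane-binding protein. EPCAM and E-cadherin (CDH1) join epithelial cells to their neighbours.

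*Krt8* and *Krt18* are neighbours on chromosome 15 of GRCm38 (chromosome 15, 101996698 to 102004482 on the minus strand and 102028180 to 102032027 on the plus strand), 23.7 kb apart and transcribed away from each other. Upstream sequence of these genes and of *Spp1* (chromosome 5, 104435118 to 104441050, plus strand) is shown because the keratin pair separated with age and *Spp1* was high in single libraries. The sequences are RefSeq regions of GRCm38.p6 from the 250 bases before the start site, without bases inside the annotated gene, and are read 5′ to 3′ on the strand of the gene. They cover chr15:102004483-102004592 (minus strand) for *Krt8*, chr15:102027966-102028179 (plus strand) for *Krt18* and chr5:104434861-104435110 (plus strand) for *Spp1*. Capitals mark matches, on either strand, to the ONECUT-type motif ATNGAT and to the TATA box TATAAA.
Krt8: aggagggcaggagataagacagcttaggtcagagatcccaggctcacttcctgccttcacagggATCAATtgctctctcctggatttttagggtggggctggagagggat
Krt18: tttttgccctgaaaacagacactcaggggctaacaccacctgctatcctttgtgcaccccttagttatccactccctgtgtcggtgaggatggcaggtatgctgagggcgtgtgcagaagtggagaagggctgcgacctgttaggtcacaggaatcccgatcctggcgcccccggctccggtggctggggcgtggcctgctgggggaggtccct
Spp1: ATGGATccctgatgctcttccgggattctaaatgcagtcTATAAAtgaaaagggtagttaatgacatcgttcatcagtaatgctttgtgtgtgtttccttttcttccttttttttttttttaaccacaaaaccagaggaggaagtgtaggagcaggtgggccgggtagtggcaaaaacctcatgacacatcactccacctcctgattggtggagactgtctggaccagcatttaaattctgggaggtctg
*Krt8* and *Spp1* each held an ATNGAT match, as did 18.87% of 32851 regions of the same length, and the match in *Krt8* was on the opposite strand to the gene. *Spp1* held TATAAA 211 bases before its start, a motif found in 12.37% of regions. *Krt18* held none of the motifs searched. Over 7 regions of the 6 members with an entry (*Krt8*, *Krt18*, *Spp1*, *Anxa2*, *Onecut1* and *Epcam*), no match was found to the SOX-type motif AACAAT (9.42% of all regions) or to CTAATG, a core bound by ISL1 (6.36%). The RBPJ motif TGGGAA, of the Notch pathway's DNA-binding factor, was found in the windows of *Krt8* and *Anxa2* and in 21.59% of all regions. The motifs do not overlap in the sequences printed. The match is of letters alone. Regions of *Sox9*, *Krt19* and *Cdh1* were not used here.

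Total counts were 11299969 to 13580985 per library at E14.5 and 8477482 to 13435089 at P9. The 8 islet hormone genes took 51.1 to 56.4% of the counts in P9 controls and 13.98 to 30.2% in P9 *Isl1CKO* libraries, so the scale of P9 values depends on the normalisation. Counts were scaled by TMM (trimmed mean of M-values, a per-library factor that leaves out the most extreme genes) and are called scaled counts within an age. Levels set between genes or between ages are RPKM (TMM-scaled CPM divided by exon length in kilobases). *Isl1* itself was counted over all exons, including any that the floxed allele keeps, so its count does not check the deletion. Its scaled count was 14924 ± 1368 (SD, n = 6) in controls and 10672 ± 1037 (n = 5) in *Isl1CKO* at E14.5, and 3811 ± 515 (n = 5) against 8037 ± 2455 (n = 6) at P9. It was thus lower in the libraries labelled *Isl1CKO* at E14.5 and higher at P9. Summed endocrine markers ranged from 162577 to 573979 scaled counts over the 22 libraries, and at each age every *Isl1CKO* library exceeded every control. The highest E14.5 control had 239152 and the lowest E14.5 *Isl1CKO* library 311682. At P9 the same limits were 185151 and 409917. The sum has no reference level, so it cannot show whether cells of other types were sorted as well. Nor does it show a rise of the markers as a set, because abundant genes such as *Chgb* weigh most in it. Mean scaled counts of *Chgb* were 12060 in P9 controls and 259471 in P9 *Isl1CKO*. In the E14.5 groups they were 116746 and 219992. Among the 10 markers summed, 4 had a positive log2 fold change in the P9 comparison (median -0.045). In the E14.5 comparison 6 did (median 0.13).

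None of the 9 genes passed the test for a difference between *Isl1CKO* and control cells at either age, by edgeR's quasi-likelihood test (adjusted p under 0.05 over all genes). At E14.5, 0 of 8 genes tested were called, where 1.43% of all 15960 genes were (0.602% higher and 0.827% lower), and at P9, 0 of 7, where 4.81% of 13964 were (2.66% higher and 2.14% lower). For no member did all *Isl1CKO* libraries lie above, or all below, every control, a pattern found in 1.2% and 1.29% of genes at E14.5 and in 2.81% and 2.57% at P9. At an unadjusted p under 0.05 there were 2 genes at E14.5 (*Krt8* and *Krt19*) and 4 at P9 (*Krt8*, *Spp1*, *Epcam* and *Cdh1*), where 11.4% and 17.4% of all genes passed. The exact permutation test over libraries, run on all 9 genes and unadjusted, gave a p under 0.05 for 2 at E14.5 (*Krt19* and *Spp1*) and 4 at P9 (*Krt8*, *Anxa2*, *Epcam* and *Cdh1*). DESeq2 called none at E14.5 and *Anxa2*, lower, at P9. The median log2 fold change of the genes tested was 0.07 at E14.5 and 0.33 at P9, against -0.0045 and 0.02 over all genes. *Onecut1* was filtered out for low counts at both ages and *Anxa2* at P9. The P9 calls over all genes were 372 higher and 299 lower, and 3824 higher and 151 lower with scaling by total counts, which moved the median of all genes to 0.68. That scaling called 4 members higher at P9 (*Krt8*, *Krt18*, *Spp1* and *Epcam*), and scaling by totals without the 8 hormone genes called *Cdh1* lower.

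**Figure D1:**
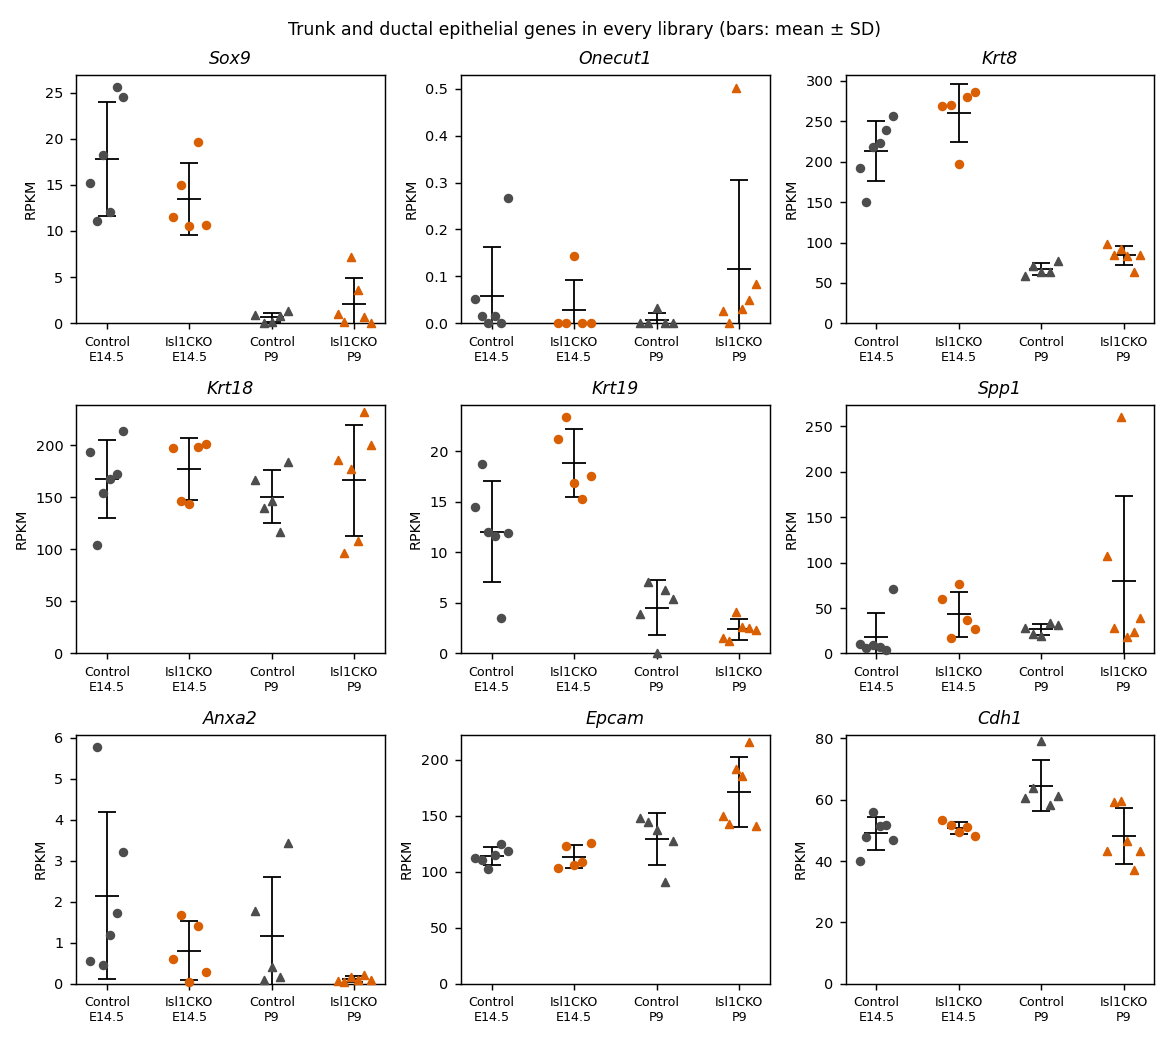
RPKM (vertical axis, from 0) of the 9 genes in the 4 groups (horizontal axis), 1 point per library with mean and SD. *Sox9*, *Krt8* and *Krt19* were low at P9 in both genotypes, and *Spp1* was high in single libraries of E14.5 control and P9 *Isl1CKO* cells.

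*Sox9* and *Onecut1* are the transcription factors of the set. At E14.5 the scaled counts of *Sox9* were from 745 to 1717 (median 1113) in controls and 778, 996, 707, 1314 and 710.0 in *Isl1CKO*. The groups overlapped, with 2 *Isl1CKO* libraries under every control. The log2 fold change of *Sox9* was -0.40 (95% interval -0.90 to 0.10, adjusted p = 0.564). At P9 the scaled counts of *Sox9* were 30.3, 2.52, 5.81, 28.0 and 44.5 in controls and from 2.84 to 249 (median 28.7) in *Isl1CKO* libraries, where replicates 3 (249) and 4 (126) lay above every control and the other 4 within the control range. The log2 fold change was 1.71 (95% interval -0.51 to 3.94, adjusted p = 0.454), and without replicate 3 it was 0.77. The group medians were 27.96 and 28.7.

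*Onecut1* was close to absent. Its counts over all libraries of a group were 23 in E14.5 controls, 10 in E14.5 *Isl1CKO*, 1 in P9 controls and 26 in P9 *Isl1CKO*, and a single library held most of the reads in each group with more than 1 read. These libraries were control replicate 6 (18 reads) and *Isl1CKO* replicate 3 (10 reads) at E14.5 and *Isl1CKO* replicate 3 at P9 (18 reads). The exact permutation test over libraries gave p = 0.545 at E14.5 and 0.0671 at P9 (two-sided, on log2 of the scaled count plus 1). *Onecut1* shares 2171 exon bases with the lincRNA *Gm20649* on the same strand, which is not among the genes counted in these tables.

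*Krt8* and *Krt18* were, with *Epcam*, the most abundant members. *Krt8* had scaled counts from 4794 to 8122 (median 6963) in E14.5 controls and 8582, 8518, 6275, 8852 and 9012 in E14.5 *Isl1CKO*, and 4 of 5 *Isl1CKO* libraries were above every control. The log2 fold change was 0.29 (95% interval 0.023 to 0.56, adjusted p = 0.382). At P9 the scaled counts of *Krt8* were 963, 1163, 1056, 1036 and 1251 in controls and from 1028 to 1587 (median 1371) in *Isl1CKO*, and 5 of 6 *Isl1CKO* libraries were above every control, for a log2 fold change of 0.33 (95% interval 0.021 to 0.63, adjusted p = 0.248). The difference missed the threshold at both ages and had nearly the same size, 0.29 and 0.33. *Krt8* overlaps by its exons the antisense lincRNA *Gm36026*, which held 186 reads over the E14.5 libraries, and the library kit does not mark strand.

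*Krt18*, the filament partner of *Krt8*, had a difference of 0.086 (95% interval -0.25 to 0.42, adjusted p = 0.906) at E14.5 and 0.14 (95% interval -0.32 to 0.60, adjusted p = 0.819) at P9 on the log2 scale. Its scaled counts overlapped fully at E14.5, where 0 of 5 *Isl1CKO* libraries lay outside the control range. At P9 they were 1982, 1673, 1768, 1413 and 2174 in controls and from 1147 to 2761 (median 2169) in *Isl1CKO*, with 3 *Isl1CKO* libraries above and 2 below every control. The SD of *Krt18* was 631 scaled counts in P9 *Isl1CKO* and 292 in P9 controls, and this difference in spread was not tested.

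*Krt19* had scaled counts from 104 to 568 (median 356) in E14.5 controls and 640.4, 700.2, 507, 458 and 524 in E14.5 *Isl1CKO*. The log2 fold change was 0.65 (95% interval 0.023 to 1.28, adjusted p = 0.416), and the exact permutation test for this gene alone gave p = 0.0303 at E14.5 and 0.911 at P9, two-sided. At P9 the scaled counts were 60.5, 109.5, 1.16, 97.2 and 82.4 in controls, where replicate 3 held 1 read, and from 19.7 to 64.2 (median 36.9) in *Isl1CKO*. No P9 *Isl1CKO* library exceeded the control median, and the log2 fold change was -0.93 (95% interval -2.44 to 0.59, adjusted p = 0.581). The sign of *Krt19* thus differed between the ages. The test of that difference did not pass, with -1.57 (95% interval -3.04 to -0.10, adjusted p = 0.291), but without P9 control replicate 3 it was -1.89 with an adjusted p of 0.0414.

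*Spp1* was high in a single library of E14.5 controls. At E14.5 its scaled counts were from 90.7 to 1902 (median 219) in controls and 1613, 443, 2056, 976 and 701 in *Isl1CKO*. Control replicate 6 (1902) stood apart from the other 5 controls, which were at 90.7 to 281, below every *Isl1CKO* library. With all libraries the log2 fold change was 1.27 (95% interval -0.16 to 2.6997, adjusted p = 0.506) and the exact permutation p was 0.0411 (at P9 it was 0.279). Without control replicate 6 it was 2.58 with an adjusted p of 0.00570, which passed the test. Control replicate 6 also held the most *Onecut1* of the controls.

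Markers of other cells moved with the E14.5 groups. Summed macrophage markers were 468 to 759 scaled counts in controls and 484 to 1649 in *Isl1CKO*, highest in *Isl1CKO* replicates 3, 4 and 5. All 5 macrophage markers tested had a positive log2 fold change and none was called, and *Tyrobp* was at 0 in every control. Summed hepatoblast markers were 330.0 to 888 in controls and 758 to 3156 in *Isl1CKO*, with 2 of 8 called (*Apoa1* and *Fgb*, an apolipoprotein and a fibrinogen chain). Control replicate 6 had 571 macrophage and 630.4 hepatoblast scaled counts, inside the range of the other controls. For *Apoa1* alone it had 96.7, above the other controls (0 to 13.4) and below every *Isl1CKO* library (153 to 673). Its *Fgb*, at 138, was inside the range of the other controls. Without the 3 *Isl1CKO* libraries high in macrophage markers the log2 fold change of *Spp1* was 1.10. Only *Isl1CKO* replicates 1 and 2 (1613 and 443 scaled counts of *Spp1*) remained in that fit, too few to show the part of the macrophage markers. The part of the hepatoblast markers in the result was not tested.

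At P9 the scaled counts of *Spp1* were 382, 295, 268, 462.04 and 419.8 in controls and from 255 to 3583 (median 454) in *Isl1CKO*. Replicates 3 (3583) and 1 (1462) were far above the other 4 *Isl1CKO* libraries, which were at 255 to 524. The log2 fold change was 1.58 (95% interval 0.31 to 2.84, adjusted p = 0.164), and 0.69 without replicate 3. Replicate 3 held the highest value among the 6 *Isl1CKO* libraries for 5 of 9 members (*Sox9*, *Onecut1*, *Krt19*, *Spp1* and *Cdh1*) and for 11 of 29 other trunk and duct genes. Its macrophage marker sum, 85.2, was the lowest of the 6. Its acinar marker sum was 3186, in a range of 308 to 4224 for P9 *Isl1CKO* and 1052 to 15099.8 for P9 controls. Summed endothelial markers had a median of 61.6 in P9 controls and 165 in P9 *Isl1CKO*, where every library exceeded every control, mostly *Esam* (an endothelial adhesion molecule), and their part in any result was not tested.

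*Anxa2* was low and uneven. Its scaled counts at E14.5 were from 28.1 to 351 (median 87.6) in controls and 36.5, 101, 1.90, 85.3 and 16.6 in *Isl1CKO*, with a log2 fold change of -1.43 (95% interval -3.12 to 0.26, adjusted p = 0.539). At P9 they were 54.7, 2.52, 12.8, 5.33 and 105 in controls and from 0.937 to 6.67 (median 3.00) in *Isl1CKO*. The P9 *Isl1CKO* libraries held 1 to 8 reads each and 23 in all, and 2 of the 5 controls held 2 and 4 reads. The exact permutation test gave p = 0.141 at E14.5 and 0.0303 at P9, two-sided. *S100a10*, whose protein binds ANXA2 in a complex, had a log2 fold change of -0.20 (SE 0.29, adjusted p = 0.867) at E14.5 and 0.11 (SE 0.44, adjusted p = 0.947) at P9.

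*Epcam* and *Cdh1*, the adhesion genes, were even across libraries. At E14.5 *Epcam* had 4044 ± 273 in controls and 4022 ± 345 in *Isl1CKO* scaled counts (SD, n = 6 and 5), for a log2 fold change of -0.0079 (95% interval -0.17 to 0.15, adjusted p = 0.985). *Cdh1* had 3625 ± 406 in controls and 3755 ± 162 in *Isl1CKO*, for a log2 fold change of 0.051 (95% interval -0.13 to 0.23, adjusted p = 0.892). These were the narrowest intervals of the set.

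At P9 the scaled counts of *Epcam* were 2703, 2645, 2530.2, 1669.7 and 2311 in controls and from 2549.6 to 3925 (median 3067) in *Isl1CKO*, with 4 of 6 *Isl1CKO* libraries above every control. Its log2 fold change was 0.40 (95% interval 0.054 to 0.74, adjusted p = 0.201). Those of *Cdh1* were 2303, 2428, 3043, 2245 and 2316 in controls and from 1401 to 2283 (median 1714) in *Isl1CKO*, with 4 of 6 below every control. Its log2 fold change was -0.43 (95% interval -0.75 to -0.11, adjusted p = 0.131). Neither passed the test. With scaling by total counts *Cdh1* changed sign, to 0.21, while *Epcam* was 1.06.

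**Figure D2:**
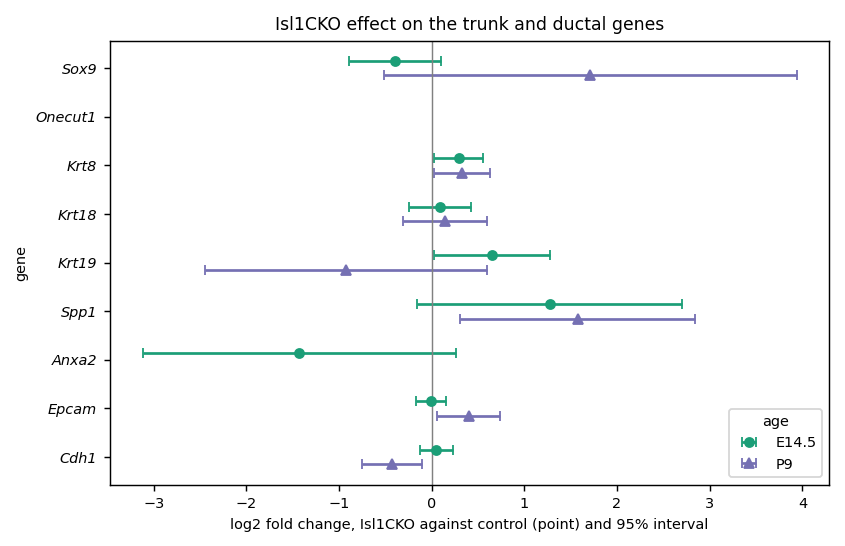
Log2 fold change of *Isl1CKO* against control (horizontal axis) for each gene (vertical axis) at E14.5 (circles) and P9 (triangles), with 95% intervals; *Onecut1* at both ages and *Anxa2* at P9 were not tested. The intervals of *Krt8* lay above 0 at both ages and that of *Cdh1* at P9 below 0, but no gene passed after adjustment over all genes.

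A difference between the ages in the effect of *Isl1CKO* was called for 0 of the 8 genes tested in 1 model over all 22 libraries, where 1.23% of 17265 genes were called higher and 0.851% lower at P9. At an unadjusted p under 0.05 there were 4 genes, where 15.1% of all genes passed. The smallest p was that of *Cdh1*, with a difference of -0.47 (95% interval -0.82 to -0.12, adjusted p = 0.156). *Epcam* had a log2 difference of 0.41 (95% interval 0.041 to 0.78, adjusted p = 0.269) and *Sox9* one of 2.09 (95% interval 0.0096 to 4.17, adjusted p = 0.328). DESeq2 was run on the same model and called no member.

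The larger differences were between the ages. In controls, 3 of 8 genes were lower at P9 than at E14.5 (*Sox9*, *Krt8* and *Krt19*) and 1 was higher (*Cdh1*), where 15.2% of all genes were lower and 15.8% higher. In *Isl1CKO* cells 4 of 8 were lower (*Sox9*, *Krt8*, *Krt19* and *Anxa2*) and 1 was higher (*Epcam*), against 13.7% and 16% of all genes. The ages were dissociated differently, with collagenase perfusion at P9, and were counted in separate tables, so age and handling cannot be told apart. Scaling by total counts moved the median of all genes to -1.21 in controls and -0.50 in *Isl1CKO*, and changed the difference of *Cdh1* in controls to -0.78.

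*Sox9* had the largest fall of the members in controls. Its level was 17.8 ± 6.19 RPKM in E14.5 controls and 0.646 ± 0.517 in P9 controls (SD, n = 6 and 5), a log2 difference of -4.77 (95% interval -6.48 to -3.06, adjusted p = 1.08e-04). In *Isl1CKO* it went from 13.5 ± 3.89 to 2.12 ± 2.81 RPKM, a log2 difference of -2.68 (95% interval -4.11 to -1.25, adjusted p = 0.00500). The highest P9 *Isl1CKO* library had 7.20 RPKM, under the lowest E14.5 control library at 11.0.

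*Krt8* fell in both genotypes. It was 213 ± 37.7 RPKM in E14.5 controls and 67.0 ± 7.31 in P9 controls, a log2 difference of -1.67 (95% interval -1.95 to -1.39, adjusted p = 2.96e-09). In *Isl1CKO* cells it was 260.3 ± 35.8 and 84.3 ± 11.6 RPKM, a log2 difference of -1.63 (95% interval -1.90 to -1.35, adjusted p = 3.54e-09). All 6 P9 *Isl1CKO* libraries were below every E14.5 control library. The difference between the genotypes in this change was 0.043 (95% interval -0.34 to 0.43, adjusted p = 0.954).

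*Krt19* was 12.0 ± 5.00 RPKM in E14.5 and 4.54 ± 2.76 in P9 controls, a log2 difference of -1.41 (95% interval -2.47 to -0.34, adjusted p = 0.0416). This call was lost when any of 9 libraries was left out, namely E14.5 control replicates 1, 2, 3, 4 and 6, E14.5 *Isl1CKO* replicates 1 and 5 and P9 control replicates 1 and 5, with adjusted p values of 0.0500 to 0.0900. In *Isl1CKO* cells *Krt19* went from 18.8 ± 3.35 to 2.39 ± 1.01 RPKM, a log2 difference of -2.98 (95% interval -4.06 to -1.89, adjusted p = 1.41e-04). *Anxa2* in *Isl1CKO* cells went from 0.801 ± 0.718 to 0.108 ± 0.0673 RPKM, a log2 difference of -2.85 (95% interval -4.78 to -0.92, adjusted p = 0.0236). It was lost without E14.5 *Isl1CKO* replicate 2 (adjusted p = 0.0722) or replicate 4 (adjusted p = 0.0581).

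The adhesion genes did not fall with age under TMM scaling. *Cdh1* in controls rose from 49.0 ± 5.47 to 64.6 ± 8.27 RPKM, a log2 difference of 0.40 (95% interval 0.15 to 0.65, adjusted p = 0.0138), which was lost without P9 control replicate 3 (adjusted p = 0.0577). In *Isl1CKO* cells it was 50.7 ± 2.04 and 48.2 ± 9.27 RPKM, a log2 difference of -0.075 (95% interval -0.32 to 0.17, adjusted p = 0.681). *Epcam* in *Isl1CKO* cells rose from 113 ± 10.2 to 171 ± 31.1 RPKM, a log2 difference of 0.60 (95% interval 0.33 to 0.86, adjusted p = 9.76e-04), and in controls the difference was 0.19 (95% interval -0.075 to 0.45, adjusted p = 0.283). All 6 P9 *Isl1CKO* libraries exceeded every E14.5 control library for *Epcam*. The rise of *Epcam* in *Isl1CKO* cells was lost with scaling by total counts, at 0.056.

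*Spp1* and *Krt18* showed no called change with age. *Spp1* had a log2 difference of 0.56 (95% interval -0.86 to 1.99, adjusted p = 0.578) in controls, or 1.87 without E14.5 control replicate 6 (adjusted p = 0.0192). In *Isl1CKO* cells *Spp1* had a log2 difference of 0.87 (95% interval -0.56 to 2.31, adjusted p = 0.370). *Krt18* had a log2 difference of -0.15 (95% interval -0.57 to 0.26, adjusted p = 0.607) in controls and -0.090 (95% interval -0.50 to 0.32, adjusted p = 0.772) in *Isl1CKO*.

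**Figure D3:**
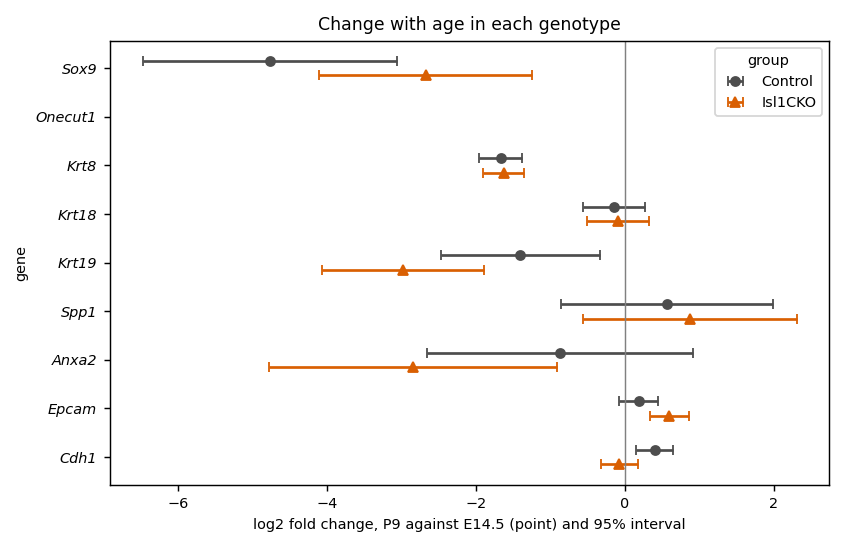
Log2 fold change of P9 against E14.5 (horizontal axis) for each gene (vertical axis) in controls (circles) and *Isl1CKO* (triangles), with 95% intervals; *Onecut1* was not tested. *Sox9*, *Krt8* and *Krt19* lay below 0 in both genotypes, and *Krt18* crossed 0 in both.

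The ratio within the keratin pair, which library scaling does not touch, was lower at P9. It was chosen after its values were seen and is given without a test. The ratio of *Krt8* to *Krt18* RPKM was 1.30 ± 0.171 in E14.5 controls and 1.48 ± 0.206 in E14.5 *Isl1CKO* (SD, n = 6 and 5). It was 0.453 ± 0.0725 in P9 controls and 0.566 ± 0.224 in P9 *Isl1CKO* (n = 5 and 6). The ranges of the ages did not meet, with 0.996 as the lowest E14.5 library and 0.883 as the highest P9 library. Within an age the genotypes overlapped.

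**Figure D4:**
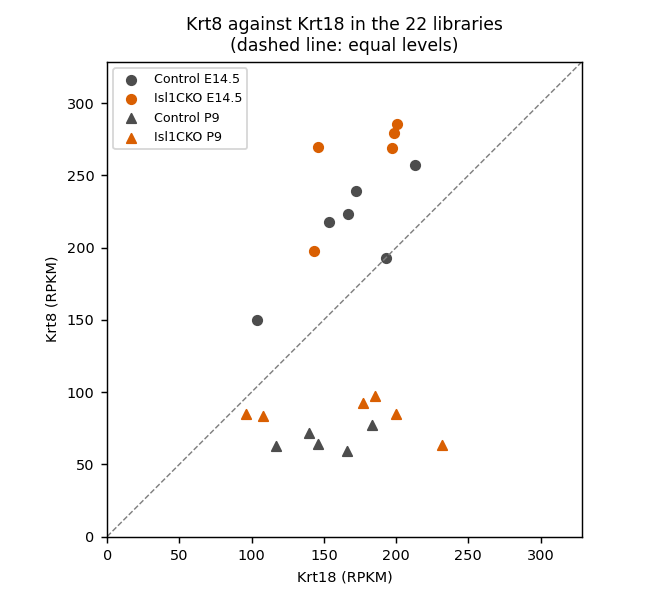
*Krt8* RPKM (vertical axis) against *Krt18* RPKM (horizontal axis) in the 22 libraries, with a dashed line at equal levels. The E14.5 libraries (circles) lie close to or above the line and the P9 libraries (triangles) below it, in controls and *Isl1CKO* alike.

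Ordered by mean RPKM, *Krt18*, *Krt8* and *Epcam* were the highest 3 members in each of the 4 groups, between 67.0 and 260 RPKM. *Cdh1* followed at 48.2 to 64.6 RPKM, except that *Spp1* was above it in P9 *Isl1CKO*. The RPKM of *Spp1* was from 3.40 to 71.5 (median 8.26) in E14.5 controls and 60.1, 16.7, 76.9, 36.6 and 26.4 in E14.5 *Isl1CKO*. At P9 it was 27.9, 21.5, 19.4, 33.4 and 30.9 in controls and from 18.5 to 260.1 (median 33.3) in *Isl1CKO*. *Sox9*, *Krt19*, *Anxa2* and *Onecut1* had lower means than those genes in every group. In E14.5 controls the place of *Spp1* above *Sox9* and *Krt19* rested on replicate 6, at 71.5 RPKM. By median the order there was the reverse, with *Sox9* at 16.7, *Krt19* at 11.9 and *Spp1* at 8.26 RPKM. At E14.5 the ranges of *Krt8* and *Krt18* overlapped in controls, at 150.2 to 257 and 104 to 213 RPKM. Within these libraries the ratio of *Krt8* to *Krt18* was 0.996 to 1.45, with a median of 1.36. At P9 the ranges of *Krt18* and *Epcam* overlapped in both genotypes, as did those of *Krt8* and *Cdh1* in controls.

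Other genes of trunk and duct cells were read from a list of 30. At E14.5, 1 of 22 tested was called, *Krt7*, and at P9 3 of 17, *Dcdc2a*, *Cd24a* and *Ambp*, all higher in *Isl1CKO*, where 0.602% and 2.66% of all genes were called higher. None was called lower. The median log2 fold change of the list was 0.14 at both ages, and 15 of 22 genes at E14.5 and 11 of 17 at P9 were positive. Some duct genes had lower means in P9 *Isl1CKO* than in P9 controls, without a call. Mean scaled counts in controls and *Isl1CKO* were 111 and 66.8 for *Pkhd1*, 130 and 70.2 for *Slc4a4*, and 397 and 234 for *Clu*.

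*Krt7*, a type II keratin of ducts, had scaled counts from 4688 to 5242 (median 4912) in E14.5 controls and 5363, 6540.1, 5821, 6811 and 6189 in E14.5 *Isl1CKO*, and the groups did not overlap, as in 1.2% of genes. Its log2 fold change was 0.31 (SE 0.070, adjusted p = 0.0423). The list had no call when any of 9 of the 11 libraries was left out. At P9 the log2 fold change of *Krt7* was 0.62 (SE 0.19, adjusted p = 0.0757).

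*Dcdc2a*, a doublecortin-domain protein of the primary cilium, had scaled counts 155, 166, 282, 91.9 and 155 in P9 controls and from 609.8 to 1776 (median 1214) in P9 *Isl1CKO*, for a log2 fold change of 2.90 (SE 0.32, adjusted p = 8.40e-05). *Cd24a*, a small surface glycoprotein of progenitor and duct cells, had 171, 432, 416, 558 and 416 in controls and from 1335 to 2236 (median 1850.2) in *Isl1CKO*, for a log2 fold change of 2.18 (SE 0.25, adjusted p = 1.11e-04). *Ambp*, which encodes the precursor of alpha-1-microglobulin and bikunin, had 203, 274, 298, 386 and 459 and from 756 to 1684 (median 999), for a log2 fold change of 1.74 (SE 0.26, adjusted p = 9.66e-04). In all 3 the P9 *Isl1CKO* libraries were above every control, as in 2.81% of genes. At E14.5 the log2 fold changes were -0.39 (SE 0.36, adjusted p = 0.759) for *Dcdc2a*, 0.58 (SE 0.22, adjusted p = 0.302) for *Cd24a* and 0.0021 (SE 0.14, adjusted p = 0.998) for *Ambp*. *Ambp* was abundant in the E14.5 sort of both genotypes, at means of 7024 scaled counts in controls and 7035 in *Isl1CKO*.

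The other genes of the list missed the threshold or were too low to test. *Onecut2*, the paralogue of *Onecut1*, had a log2 fold change of -0.019 (SE 0.27, adjusted p = 0.989) and -0.54 (SE 0.56, adjusted p = 0.705). *Cftr*, the chloride channel of duct cells, averaged 3.55 and 1.93 scaled counts at E14.5 and 2.46 and 13.2 at P9 in controls and *Isl1CKO*, too low to test. *Hes1*, a Notch target, had a log2 fold change of -0.70 (SE 0.72, adjusted p = 0.704) at P9. *Tm4sf4*, a tetraspan membrane protein and the most abundant gene of the list, had a log2 fold change of 0.52 (SE 0.16, adjusted p = 0.185) at E14.5 and 0.69 (SE 0.20, adjusted p = 0.0687) at P9.

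**Figure D5:**
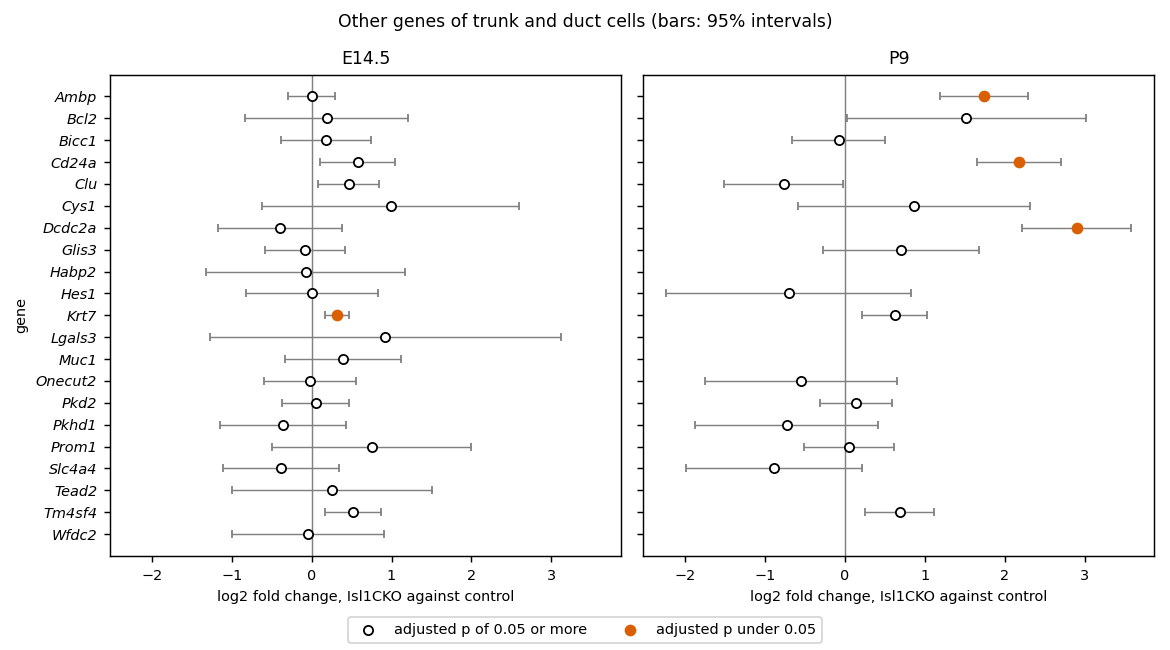
Log2 fold change of *Isl1CKO* against control (horizontal axis) with 95% intervals for the other trunk and duct genes shown (vertical axis) at E14.5 and P9; filled points passed the test. *Krt7* passed at E14.5, and *Dcdc2a*, *Cd24a* and *Ambp* at P9, all to the right of 0.

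Partners and opponents of the members were read from further lists, whose calls in either direction stand beside 1.43% of all genes at E14.5 and 4.81% at P9. Of 12 genes whose proteins bind keratin filaments, 1 was called at each age, *Evpl* (envoplakin, a plakin that links filaments to junctions), with log2 fold changes of 0.70 (SE 0.16, adjusted p = 0.0483) and 2.47 (SE 0.50, adjusted p = 0.00930). Of the other keratins, *Krt7* was called at E14.5 and *Krt80* at P9, lower at -3.56 (SE 0.93, adjusted p = 0.0394). *Krt80* was low and uneven at P9. Its scaled counts were 4.66 to 196 in controls and 1.74 to 24.2 (median 3.76) in *Isl1CKO*, so the groups overlapped. Of 13 cadherin and EpCAM partners, 0 of 12 tested were called at E14.5 and 1 of 11 at P9, *Ncam1*, a neural cell adhesion molecule, at 0.72 (SE 0.15, adjusted p = 0.0130). Of 12 epithelial regulators none was called at either age, with 10 and 9 tested.

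Of 9 mesenchymal regulators and markers, *Vim* (vimentin, the type III filament of mesenchyme) was called higher at both ages, with scaled counts of 1556 ± 286 in controls and 3954 ± 985 in *Isl1CKO* at E14.5 and 113 ± 93.3 in controls and 871 ± 599 in *Isl1CKO* at P9. Its log2 fold changes were 1.35 (SE 0.17, adjusted p = 8.47e-04) and 2.95 (SE 0.71, adjusted p = 0.0254). The paper counts *Vim* and *Evpl* among the genes of intermediate endocrine progenitors. *Zeb1*, a repressor of *Cdh1*, was called lower at E14.5, at -0.58 (SE 0.13, adjusted p = 0.0470). Summed mesenchyme markers were 267 to 1253 scaled counts in E14.5 controls against 164 to 319.6 in *Isl1CKO*, and 90.8 to 735 against 39.1 to 424 at P9.

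Of the annexins, 0 of 7 were called at E14.5 and 1 of 8 at P9, *Anxa5*, lower at -0.71 (SE 0.19, adjusted p = 0.0426). Of 9 osteopontin receptors, *Cd44*, the hyaluronan receptor, was called at P9, at 1.39 (SE 0.37, adjusted p = 0.0429). For these lists too the share of all genes called was 1.43% and 4.81%. In the network of SOX9 and ONECUT factors, 1 of 18 tested was called at E14.5 and 1 of 17 at P9, in each case *Pdx1*, the pancreatic homeodomain factor, with log2 fold changes of -0.71 (SE 0.14, adjusted p = 0.0260) and -1.46 (SE 0.19, adjusted p = 3.42e-04).

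Members were compared within groups for pairs that share a filament or a duct cell, as the correlation of deviations from group means over 11 libraries (exact permutation within groups, 6 relations). *Krt8* and *Krt18* at E14.5 had r = 0.78 (p = 0.0148, adjusted p = 0.0891) and Spearman's rho = 0.65 (p = 0.0567, adjusted p = 0.218). Without the 2 libraries farthest from the median of *Krt8*, r was 0.28, so the relation rested on those libraries. At P9 the pair had r = -0.16 (p = 0.729, adjusted p = 0.781) and rho = 0.05 (p = 0.890, adjusted p = 0.891), and r = 0.28 without 2 libraries. *Krt8* and *Krt19* had r = -0.45 (p = 0.234, adjusted p = 0.469) and rho = -0.59 (p = 0.0727, adjusted p = 0.218) at E14.5, with r = -0.46 without 2 libraries. At P9 they had r = 0.09 (p = 0.781, adjusted p = 0.781) and rho = 0.07 (p = 0.832, adjusted p = 0.891), with r = 0.27 without 2 libraries.

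*Sox9* and *Spp1* had r = 0.13 (p = 0.778, adjusted p = 0.781) and rho = -0.05 (p = 0.891, adjusted p = 0.891) at E14.5, with r = 0.54 without 2 libraries. At P9 they had r = 0.48 (p = 0.227, adjusted p = 0.469) and rho = 0.37 (p = 0.338, adjusted p = 0.675), with r = 0.14 without 2 libraries. None of the 6 relations passed after adjustment. The exact tests permuted libraries within each group, two-sided.

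The genes whose library-to-library pattern was most like the mean of the members tested are given as a description over 11 libraries, which share depth and scaling. At E14.5 they were *Fnip1* (r = 0.90), *Rif1* (0.89), *Dusp10* (0.87), *Rbm14* (0.86) and *Zfp959* (0.86). At P9 they were *Atp1b3* (0.92), *Zbtb22* (0.90), *Sst* (0.87), *Stk39* (0.86) and *Tbc1d20* (0.85). Few genes are listed at each age, so the absence of trunk and duct genes among them carries no information about those genes. *Sst* was near the floor in P9 *Isl1CKO*, at 0 to 2.87 scaled counts, against 222 to 1246 in P9 controls.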

How the data were processed

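Libraries of 100 sorted cells were processed by the authors, who trimmed reads (cutadapt 1.18, Trimmomatic), filtered ribosomal sequence (Bowtie 1.2.2, SortMeRNA), aligned to GRCm38 (STAR 2.7.0c) and summarised uniquely mapped reads per gene (Rsubread). The deposited values are raw counts, and genes under 10 counts over an age are absent. Here edgeR 4.0.16 (R 4.3.3) was run on all genes of an age with TMM, filterByExpr and the quasi-likelihood test, with Benjamini-Hochberg adjustment, and in 1 model over 22 libraries for the ages. Each 95% interval is the log2 fold change ± a t quantile times its standard error, which is its size over the square root of F. Exact permutation tests over libraries (smallest possible p = 0.00433) were two-sided, on log2(scaled count + 1). Symbols and lengths came from GENCODE M21 (27078 of 27124 and 27456 of 27504 identifiers matched). The tests were tried on simulated data. DESeq2 1.42.0, other scalings, no filter, a replicate block and each library left out were alternatives. The members, lists and tests were chosen with earlier results of these data known. Named were all members and every listed gene called at an age, except most called endocrine markers and islet hormone genes. Some genes were named without a call, by abundance (*Tm4sf4*) or by choice (among them *Cftr*, *Hes1*, *Onecut2* and *S100a10*). Replicate numbers do not pair libraries: same-number correlations were -0.052 to 0.033 at E14.5 and -0.027 to 0.056 at P9. No 2 libraries of a group agreed within sampling noise. Figures were drawn with matplotlib 3.10.9. Depth is 8477482 to 13580985 counts per library, and counting error is small beside the spread between libraries for all but *Onecut1*, *Anxa2*, *Sox9* and *Krt19* at P9. The values of 1 gene of the lists are not reported here, although it is counted. Histone marks were not used here.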

Additional observations from a re-analysis of the deposited data

Results flagged for a closer look

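Of 36 groups of libraries (9 genes in 4 groups), 8 held a library far from the others by Dixon's test at 95%. By chance that test flags about 1 in 20 groups of normally distributed values. The rate does not hold for *Onecut1*, where a flag is certain if 1 library holds reads and the others are at 0. The count of 8 can therefore not be set against 1 in 20. *Spp1* had 1902 scaled counts in E14.5 control replicate 6, where the next library had 281, and 3583 in P9 *Isl1CKO* replicate 3, where the next had 1462. *Onecut1* had 17.8 scaled counts in E14.5 control replicate 6 (next 3.40), 9.52 in E14.5 *Isl1CKO* replicate 3 (next 0), 1.16 in P9 control replicate 3 (next 0) and 17.2 in P9 *Isl1CKO* replicate 3 (next 2.84). The P9 control value is 1 read. *Krt8* was lowest in E14.5 *Isl1CKO* replicate 3, at 6275 (next 8518), and *Cdh1* was highest in P9 control replicate 3, at 3043 (next 2428). *Spp1* and *Onecut1* were thus both far from the rest in the same 2 libraries, E14.5 control replicate 6 and P9 *Isl1CKO* replicate 3.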

How the results depend on the processing

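Under the settings that left out no single library, 214 of 241 fold changes of members and 87 of 106 counts and correlations kept their direction and their side of the threshold, or stayed within 1.5 times. Scaling by total counts called 4 members higher at P9 (*Krt8*, *Krt18*, *Spp1* and *Epcam*, with log2 fold changes of 0.98, 0.82, 2.17 and 1.06), 8 other trunk and duct genes higher at P9, 2 members with a larger effect at P9, 6 lower with age in controls, and 0 higher with age in either genotype. It turned *Cdh1* at P9 (0.21), its difference between ages (0.13), *Epcam* at E14.5 (0.016) and the age differences in controls of *Epcam* (-0.99), *Spp1* (-0.62) and *Cdh1* (-0.78). It also turned the P9 correlations of *Krt8* with *Krt18* (0.22) and with *Krt19* (-0.086). Most genes moved with it, as the shift of the median of all genes shows. Totals without the 8 hormone genes called 1 member lower at P9 (*Cdh1*, -0.55), 0 higher with age in controls, and gave differences between ages of -0.046 for *Krt18* and -0.068 for *Krt8*.

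The replicate numbers do not pair the libraries. With a replicate block, 1 member was called higher at E14.5 (*Spp1*, 2.47, in a fit that leaves out control replicate 6, which has no partner) and 0 other trunk and duct genes. The block gave *Epcam* at E14.5 0.00066 and differences between ages of -0.033 (*Krt8*), -0.15 (*Krt18*) and -1.58 (*Spp1*). DESeq2 called 1 member lower at P9 (*Anxa2*) and 5 other trunk and duct genes higher. *Krt7*, the call among other trunk and duct genes at E14.5, was lost (0) without the filter, with the study's thresholds on level and fold, without the 3 *Isl1CKO* libraries high in macrophage markers, and without the 2 libraries highest in acinar markers, a setting chosen after seeing the data that gave *Epcam* 0.038. Without the filter 0 members rose with age in controls. Leaving out 1 library gave 0 to 1 members higher at E14.5 (*Spp1*), 0 to 2 other trunk and duct genes higher at E14.5 and 3 to 4 at P9, 0 to 1 members with a smaller effect at P9 (*Krt19*), and with age in controls 0 to 2 higher and 2 to 3 lower, and in *Isl1CKO* 3 to 4 lower. Log2 fold changes that crossed 0 ranged from -0.044 to 0.023 (*Epcam* at E14.5), -0.0028 to 0.091 (*Cdh1* at E14.5), -0.019 to 0.17 (*Krt18* at E14.5) and -0.21 to 0.028 (*Krt18* with age in *Isl1CKO*), -0.0030 to 1.178 (*Spp1* with age in *Isl1CKO*), and for the difference between ages -0.039 to 0.13 (*Krt8*), -0.061 to 0.18 (*Krt18*) and -0.99 to 0.62 (*Spp1*). Depth limits *Onecut1* at both ages and *Anxa2* at P9, whose counts were below the filter of the edgeR test.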
